A study of Mus musculus with 30 samples.

Results

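Double-knockout and Kmt2c-knockout mouse embryonic stem cells, both held in ethanol for 8 h, were compared across all genes. The comparison took 6 of the 30 libraries of the series, chosen by line, treatment and time: 3 double-KO libraries and 3 Kmt2c-KO libraries. The double-KO cells carried the genotype label Kmt2cKO; Kmt2dKO;GRHL2-ERT. The Kmt2c-KO cells carried the label Kmt2cKO; Kmtd fl/fl;GRHL2-ERT, which names floxed alleles in place of the second knockout. Both lines therefore lacked Kmt2c and carried GRHL2-ERT, in which an epithelial transcription factor is joined to the ligand-binding part of the estrogen receptor and so made inducible. No tamoxifen was given in these 6 libraries, so ethanol was the vehicle that both groups shared. The study as a whole asked how both methyltransferases bear on the action of GRHL2, and the ethanol libraries are its uninduced baseline. All cells were labelled naive embryonic stem cells (background C57BL/6J x 129) and were kept in serum with LIF and inhibitors of MEK and GSK3. Per the series' design text, lines with the transgene were clones picked for similar GRHL2 expression, so anything else that differs between clones cannot be told apart from the loss of Kmt2d. The labels do not say whether the replicates were separate cultures, so each p measures the spread between libraries, shared in the fit over all 30. Of the 12428 genes in the table, 11946 were tested.

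KMT2C and KMT2D are the catalytic subunits of a pair of related complexes that methylate lysine 4 of histone H3, mostly as the monomethyl mark at enhancers. They also bring the H3K27 demethylase KDM6A (UTX) to chromatin and favour acetylation by p300. The enzymes overlap in function, and mouse embryonic stem cells that lack both are known to self-renew while activating new enhancers poorly on differentiation.

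Values are read counts scaled to a common total (CPM) after scaling each library by a median-of-ratios factor, which takes out the median shift of all genes between the lines. Changes are log2 fold changes, double-KO over Kmt2c-KO, on the log2(CPM + 1) scale, which understates the change of low genes. Calls are those of limma with a two-sided p, adjusted by Benjamini-Hochberg over all tested genes, below 0.05. Recovered depth was 20.4, 22.03 and 19.7 M reads in double-KO libraries, against 16.8, 16.3 and 12.3 M reads in Kmt2c-KO libraries. Reads of Rn45s, the ribosomal RNA precursor, took 3.42% to 4.82% of double-KO reads and 4.02% to 7.40% of Kmt2c-KO reads, and their part in the results was not tested beyond a fit with Rn45s as a covariate. The first principal component of the 30 libraries (42.6% of variance) split them by line.

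The tags of the targeted genes came first. Kmt2d (chromosome 15, 98831669 to 98871204; mm10) had 7.74, 11.6 and 5.07 CPM in double-KO libraries, against 16.1, 23.7 and 17.3 CPM in Kmt2c-KO libraries. The groups did not overlap, as for 24.7% of tested genes lower and 23.9% higher in double-KO cells, and Kmt2d was lower (log2 fold change -1.18 ± 0.23 SE, adjusted p = 1.1e-04). Kmt2c (chromosome 5, 25271798 to 25498783) had 23.6, 22.3 and 28.7 CPM in double-KO libraries, against 18.8, 24.4 and 18.1 CPM in Kmt2c-KO libraries, and the ranges overlapped (log2 fold change 0.28 ± 0.16 SE, adjusted p = 0.16). The deleted part of either gene is not given in the sources used here, and a 3' tag outside it checks neither knockout. Grhl2, whose tags include those of the transgene if it holds the gene's 3' end, had 31.2, 27.6 and 45.9 CPM in double-KO libraries, against 224, 160.5 and 177 CPM in Kmt2c-KO libraries and averaged 2.75 CPM in Kmt2c-KO cells without GRHL2-ERT. It was lower in double-KO cells (log2 fold change -2.41 ± 0.27 SE, adjusted p = 7.3e-08), although the protein was not measured here. Tags of the estrogen receptor gene Esr1 stood at 10.3, 15.8 and 8.99 CPM in double-KO libraries, against 16.4, 52.5 and 28.1 CPM in Kmt2c-KO libraries and a mean of 3.51 CPM without GRHL2-ERT. It was called lower (log2 fold change -1.28 ± 0.44 SE, adjusted p = 0.024), but not without the Kmt2c-KO library of replicate 2 (-0.86, adjusted p = 0.14), the double-KO library of replicate 1 (-1.22, 0.068) or that of replicate 3 (-1.13, 0.078).

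Nanog, Pou5f1, Zfp42 and Tfcp2l1, from the marker set used for naive embryonic stem cells, were expressed in both lines and were not called. That set also holds general pluripotency genes, such as Sox2. The rest of that marker set changed: Sox2, Esrrb and Klf2 were lower and Klf4 higher in double-KO cells, with values below. Among 28 naive genes, also described below, 15 were lower in double-KO cells. Nanog, a core pluripotency factor, had 478, 511 and 384 CPM in double-KO libraries, against 306, 322 and 384 CPM in Kmt2c-KO libraries. The ranges met and Nanog did not pass (log2 fold change 0.43 ± 0.22 SE, adjusted p = 0.12). Pou5f1 (OCT4) had 520.5, 530.0 and 744 CPM in double-KO libraries, against 987, 586 and 820.2 CPM in Kmt2c-KO libraries, overlapping ranges again (log2 fold change -0.40 ± 0.32 SE, adjusted p = 0.32). Zfp42 (REX1) averaged 734 ± 112 CPM in double-KO and 809.6 ± 92.0 CPM in Kmt2c-KO cells (SD, n = 3 each) and Tfcp2l1 225 ± 6.68 CPM in double-KO and 265 ± 39.5 CPM in Kmt2c-KO cells, and neither passed. Feeder fibroblast markers were at low levels. Of 18 listed markers 7 were in the table and 5 tested, with Col1a2 as the 1 called: it averaged 1.33 CPM in double-KO and 0.0632 CPM in Kmt2c-KO cells. Summed over the measured markers the list reached 11.5, 10.8 and 12.8 CPM in double-KO libraries, against 10.3, 8.18 and 9.24 CPM in Kmt2c-KO libraries. In the 16 h libraries 5 markers were tested and all 5 were called higher in double-KO cells, against 21.4% of all tested genes. Their median at 16 h was 1.00. Their part in the collagen values below was not tested.

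A wide share of genes differed between the lines. Of 11946 tested genes 5206 were called (43.6%), with 2563 higher (21.5%) and 2643 lower (22.1%) in double-KO cells. The counts of each gene list are to be read against these shares. A change of at least 1 on the log2 scale was called for 969 higher (8.11%) and 803 lower genes (6.72%), and the median of all tested genes was 0.031. The even split depends on the centring: with the deposited CPM, in which the median gene was 0.32 higher in double-KO cells, 4658 genes were higher and 1454 lower. Changes below are relative to that shift, and a decrease smaller than about 0.32 could point the other way without centring. The balance of calls turned in this way for formative and primed genes (7 higher and 6 lower without centring), DNA methylation genes (6 and 4) and germline genes (9 and 8). It turned too for other lists whose counts without centring are given below. The even split of cholesterol and fatty acid genes (9 and 9) became 12 higher and 4 lower. That of Wnt pathway genes (5 and 5) became 8 higher and 3 lower.

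**Figure D1:**
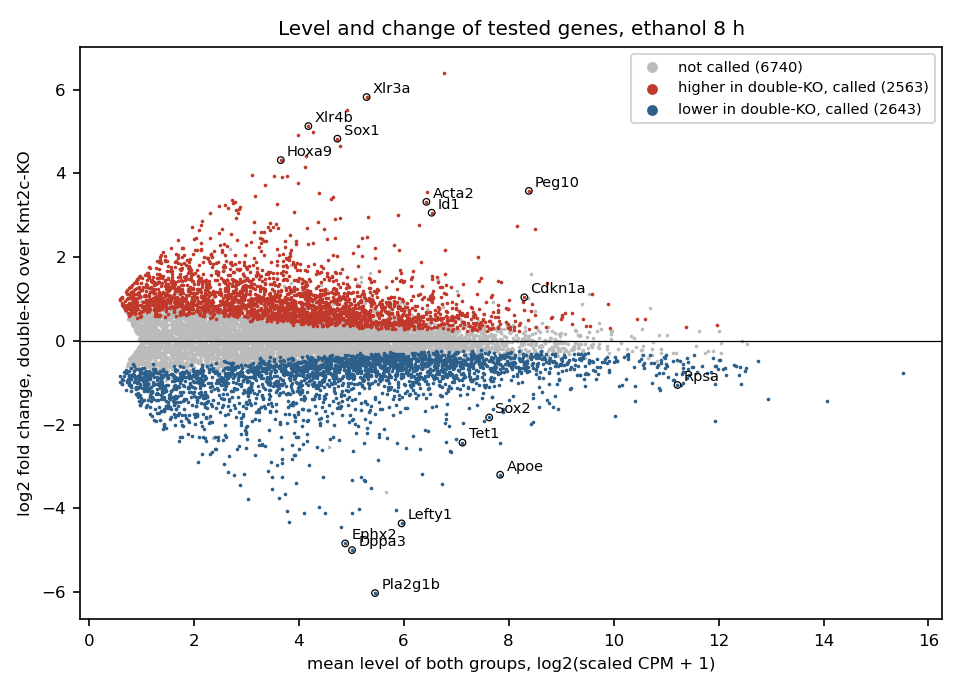
Log2 fold change of double-KO over Kmt2c-KO cells (vertical) against the mean level of both groups (horizontal, log2(scaled CPM + 1)) for the 11946 tested genes, 1 point a gene. Called genes are coloured (2563 higher, 2643 lower), and labelled examples reach 5.82 for Xlr3a and -6.03 for Pla2g1b.

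The strongest losses in double-KO cells were of genes that Kmt2c-KO cells expressed well above background. A large fall on the log2(CPM + 1) scale requires such a level. Pla2g1b (chromosome 5, 115466262 to 115474722), a secreted phospholipase gene, had 0.156, 0.348 and 0.490 CPM in double-KO libraries, against 91.6, 80.4 and 84.1 CPM in Kmt2c-KO libraries. It was nearly silent in every double-KO library (log2 fold change -6.03 ± 0.19 SE, adjusted p = 2.1e-20). Dppa3 (STELLA; chromosome 6, 122626410 to 122630272), a maternal factor that protects against DNA methylation changes in the early embryo, had 0.469, 2.01 and 0.668 CPM in double-KO libraries, against 53.4, 62.1 and 69.4 CPM in Kmt2c-KO libraries. The lowest Kmt2c-KO library lay far above the highest double-KO library (log2 fold change -5.00 ± 0.21 SE, adjusted p = 8.1e-18). Ephx2, the soluble epoxide hydrolase gene, had 0.977, 0.851 and 1.16 CPM in double-KO libraries, against 52.0, 61.9 and 54.5 CPM in Kmt2c-KO libraries (log2 fold change -4.84 ± 0.17 SE, adjusted p = 1.8e-19). Mcf2, a guanine nucleotide exchange factor gene, had 1.64, 1.59 and 1.11 CPM in double-KO libraries, against 42.6, 51.8 and 63.2 CPM in Kmt2c-KO libraries (log2 fold change -4.44 ± 0.18 SE, adjusted p = 2.9e-18). The phospholipase gene Pla1a (-4.32), Gtsf1l (-4.12), the atypical phosphatase gene Dusp27 (-4.11) and the nucleoside transporter gene Slc28a1 (-4.06) also fell. So did the piRNA factor gene Tdrd12 (-4.04) and Lrrc15 (-3.97). The rule that named these largest changes required groups that do not overlap, so that separation is no added support. Srrm4os, an antisense transcript whose reads cannot be told from its partner's without strand, was -4.11. Kmt2c-KO cells without GRHL2-ERT, given tamoxifen for 8 h, averaged 77.4 CPM of Pla2g1b, 60.9 CPM of Dppa3 and 60.6 CPM of Ephx2. These levels were near those of the Kmt2c-KO cells with the transgene.

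The strongest gains were of genes nearly silent in Kmt2c-KO cells. Xlr3a (chromosome X, 73086293 to 73097095), of the X-linked lymphocyte-regulated family, had 65.3, 71.7 and 91.3 CPM in double-KO libraries, against 0.569, 0.406 and 0.110 CPM in Kmt2c-KO libraries (log2 fold change 5.82 ± 0.21 SE, adjusted p = 1.8e-19). Xlr3b had 45.9, 57.7 and 70.7 CPM in double-KO libraries, against 0, 0.531 and 0.371 CPM in Kmt2c-KO libraries (log2 fold change 5.51 ± 0.25 SE, adjusted p = 4.4e-17). Xlr4a and Xlr4b were listed at 0 in every Kmt2c-KO library, and had 24.2, 34.1 and 30.3 CPM and 28.8, 33.1 and 41.2 CPM in double-KO libraries (adjusted p = 4.6e-13 and 3.1e-19). All 7 Xlr genes in the table, a list made after their values were seen, were called higher, but the copies are near-identical and the counting may share reads among them. Sox1 (chromosome 8, 12395295 to 12400126), a neural progenitor transcription factor, had 55.3, 50.0 and 46.2 CPM in double-KO libraries, against 1.20, 0.310 and 1.046 CPM in Kmt2c-KO libraries (log2 fold change 4.83 ± 0.20 SE, adjusted p = 8.1e-18). Pnma5, an X-linked paraneoplastic antigen family gene, had 58.2, 47.8 and 51.1 CPM in double-KO libraries, against 0.822, 1.30 and 1.31 CPM in Kmt2c-KO libraries (log2 fold change 4.64 ± 0.28 SE, adjusted p = 7.1e-14). The membrane protein gene Emp1 (4.40), the posterior patterning gene Hoxa9 (4.32), Sgce (4.14), the GDNF-family receptor gene Gfra3 (3.97) and the glutaredoxin gene Glrx (3.94) completed the rule's largest increases with Eif2s3y, a Y-linked gene described with its chromosome. AI662270, which the rule passes over as a clone name, had the largest fitted difference of all, at 193, 198 and 251 CPM in double-KO libraries, against 1.20, 0.868 and 2.96 CPM in Kmt2c-KO libraries.

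**Figure D2:**
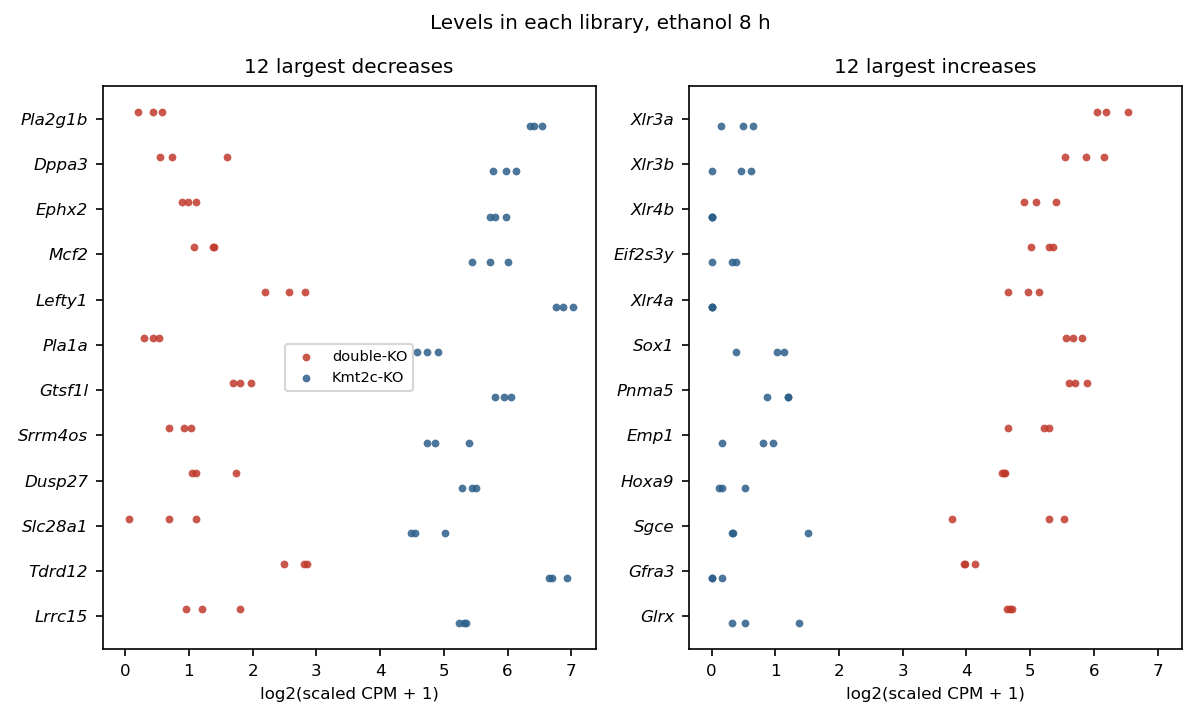
Levels in each library (horizontal, log2(scaled CPM + 1)) of the 12 largest decreases and 12 largest increases that the naming rule gave, 1 point a library, with double-KO above Kmt2c-KO in each row. The 3 libraries of a group lie close together for most genes, and double-KO libraries of Sgce spread from 12.7 to 45.3 CPM.

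Promoters are shown for a few strongly changed genes that have an entry, picked after their values were seen. They are not all the largest changes with an entry: 10 of the 12 largest increases and 7 of the 12 largest decreases had one. Genes that moved together can be compared by their start regions. The sequences are RefSeq's, on GRCm38.p6, and run from 250 bases before to 50 bases after the start, 5′ to 3′ on the gene's strand, with each CpG in capitals. The 3' tags do not measure promoter use. Pla2g1b lies at chr5:115465892-115466191 (+ strand) and Tcl1, another strong loss described below, at chr12:105222688-105222987 (- strand). Xlr3a lies at chrX:73097046-73097345 (- strand) and Xlr4b at chrX:73214083-73214382 (+ strand). Hoxa9 lies at chr6:52227321-52227620 (- strand) and Sox1 at chr8:12395269-12395568 (+ strand).
Pla2g1b: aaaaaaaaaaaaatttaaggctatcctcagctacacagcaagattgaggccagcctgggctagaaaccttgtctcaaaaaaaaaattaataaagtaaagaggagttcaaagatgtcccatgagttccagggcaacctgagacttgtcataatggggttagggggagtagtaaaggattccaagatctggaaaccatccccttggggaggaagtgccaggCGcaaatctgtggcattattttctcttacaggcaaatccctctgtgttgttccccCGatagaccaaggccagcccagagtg
Tcl1: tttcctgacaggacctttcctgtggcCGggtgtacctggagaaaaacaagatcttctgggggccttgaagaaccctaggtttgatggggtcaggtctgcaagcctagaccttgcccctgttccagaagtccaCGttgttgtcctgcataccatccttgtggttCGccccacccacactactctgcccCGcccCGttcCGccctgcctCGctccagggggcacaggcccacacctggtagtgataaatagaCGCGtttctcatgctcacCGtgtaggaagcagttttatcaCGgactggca
Xlr3a: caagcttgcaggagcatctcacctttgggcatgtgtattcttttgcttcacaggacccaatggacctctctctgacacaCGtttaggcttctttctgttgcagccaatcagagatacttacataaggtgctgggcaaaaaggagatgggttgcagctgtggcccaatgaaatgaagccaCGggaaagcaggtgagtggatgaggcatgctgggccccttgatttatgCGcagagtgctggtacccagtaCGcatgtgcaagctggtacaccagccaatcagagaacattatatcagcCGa
Xlr4b: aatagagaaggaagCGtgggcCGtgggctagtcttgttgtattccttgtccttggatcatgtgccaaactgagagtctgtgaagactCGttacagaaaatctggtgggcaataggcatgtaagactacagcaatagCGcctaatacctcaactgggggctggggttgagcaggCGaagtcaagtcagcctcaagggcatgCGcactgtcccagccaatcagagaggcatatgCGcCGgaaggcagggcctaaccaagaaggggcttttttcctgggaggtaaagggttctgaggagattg
Hoxa9: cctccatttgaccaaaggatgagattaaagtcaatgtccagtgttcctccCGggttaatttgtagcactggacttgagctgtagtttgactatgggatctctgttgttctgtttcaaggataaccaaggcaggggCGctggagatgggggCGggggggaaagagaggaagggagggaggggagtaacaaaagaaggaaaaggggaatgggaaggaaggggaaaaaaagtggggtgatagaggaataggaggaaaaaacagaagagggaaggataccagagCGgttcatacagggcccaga
Sox1: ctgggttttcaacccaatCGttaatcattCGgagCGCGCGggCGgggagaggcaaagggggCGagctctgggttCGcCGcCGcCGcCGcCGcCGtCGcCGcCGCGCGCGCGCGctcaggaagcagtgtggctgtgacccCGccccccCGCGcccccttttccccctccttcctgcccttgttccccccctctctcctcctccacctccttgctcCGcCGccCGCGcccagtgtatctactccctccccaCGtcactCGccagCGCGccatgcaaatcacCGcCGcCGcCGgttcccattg
These windows held 2 CpG in Pla2g1b, 11 in Tcl1, 5 in Xlr3a, 8 in Xlr4b, 4 in Hoxa9 and 37 in Sox1. The ratio of observed to expected CpG was 0.13 in Pla2g1b and 1.07 in Sox1. Among the 9132 tested genes with a promoter entry the median ratio was 0.78. It was 0.70 over 708 genes higher by at least 1 and 0.65 over 591 genes lower by at least 1. A ratio under 0.3 was found in 11.3% of those higher genes and in 20.98% of those lower genes, against 7.57% of all tested promoters. A change of at least 1 in size, called or not, was found for 30.4% of the 691 genes with a ratio under 0.3 and 10.2% of the 4252 genes with a ratio over 0.8. AACCGGTT, a form of the GRHL motif searched on both strands (it reads the same on each), was in 3 of the 708 and 0 of the 591 windows, against 26 of 9132 (0.285%). TATAAA on either strand was in 9.75% of the higher, 9.14% of the lower and 6.57% of all windows.

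Naive pluripotency genes were split, with more lower than higher in double-KO cells. Of 28 measured and tested genes 15 were called lower and 4 higher, with a median of -0.72. Tcl1, a cofactor of AKT, had 0.899, 0.774 and 1.83 CPM in double-KO libraries, against 19.2, 21.8 and 16.8 CPM in Kmt2c-KO libraries (log2 fold change -3.25 ± 0.18 SE, adjusted p = 4.0e-15). Fbxo15, an early OCT4 target gene, had 5.82, 5.30 and 5.79 CPM in double-KO libraries, against 46.0, 91.1 and 67.1 CPM in Kmt2c-KO libraries (log2 fold change -3.33 ± 0.19 SE, adjusted p = 1.2e-14). Dppa5a averaged 1636 ± 124 CPM in double-KO and 6221 ± 860.3 CPM in Kmt2c-KO cells (-1.92), and Dppa4 (-1.62), Dppa2 (-1.59), Tdh (-1.63) and Prdm14 (-1.39) were lower as well. The transcription factor genes Esrrb (-0.88) and Klf2 (-0.88) were lower, while Klf4 (0.96) and Tbx3 (0.61) were higher. Klf4 averaged 339 ± 40.0 CPM in double-KO and 174 ± 24.0 CPM in Kmt2c-KO cells. Of 15 general pluripotency genes 9 were lower and 4 higher, with a median of -0.50. Sox2, the partner of OCT4, had 90.3, 79.8 and 88.0 CPM in double-KO libraries, against 322, 303 and 299 CPM in Kmt2c-KO libraries. Every double-KO library lay below every Kmt2c-KO library (log2 fold change -1.83 ± 0.10 SE, adjusted p = 4.0e-15). Utf1 had 14.1, 13.97 and 18.8 CPM in double-KO libraries, against 61.8, 52.6 and 63.7 CPM in Kmt2c-KO libraries (log2 fold change -1.87 ± 0.13 SE, adjusted p = 8.5e-13), and L1td1 (-1.26) and Rif1 (-0.91) were lower too. Among 24 formative and primed genes 7 were higher and 8 lower. The median was -0.27, and 0.0030 with the deposited scaling. Lef1, a Wnt effector, was lower (-1.76) and N-cadherin (Cdh2) higher (2.31), with Sox4 at 62.4, 75.2 and 59.7 CPM in double-KO libraries, against 12.01, 11.2 and 9.41 CPM in Kmt2c-KO libraries (log2 fold change 2.49 ± 0.15 SE, adjusted p = 6.6e-14).

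The enzymes that write and erase DNA methylation changed in different directions. Of 18 measured genes 6 were lower and 5 higher, with a median of -0.29 that was 0.015 without centring. The cofactor gene Dnmt3l had 14.8, 12.7 and 18.1 CPM in double-KO libraries, against 162, 122 and 151 CPM in Kmt2c-KO libraries (log2 fold change -3.18 ± 0.16 SE, adjusted p = 3.6e-16). The de novo methyltransferase gene Dnmt3b had 20.2, 17.7 and 16.5 CPM in double-KO libraries, against 57.3, 59.1 and 66.6 CPM in Kmt2c-KO libraries (log2 fold change -1.70 ± 0.14 SE, adjusted p = 3.8e-11), and Dnmt3a averaged 55.2 ± 2.41 CPM in double-KO and 122 ± 3.11 CPM in Kmt2c-KO cells (-1.13). Dnmt3a, Dnmt3b and the cofactor gene Dnmt3l were therefore all lower in double-KO cells. The dioxygenases, which oxidise methylcytosine, were split: Tet1 was lower, at 40.6, 36.7 and 51.1 CPM in double-KO libraries, against 249, 228 and 223 CPM in Kmt2c-KO libraries (log2 fold change -2.43 ± 0.14 SE, adjusted p = 1.2e-14). Tet2 was higher, at 210.0, 189.6 and 199 CPM in double-KO libraries, against 72.3, 79.2 and 81.6 CPM in Kmt2c-KO libraries (log2 fold change 1.35 ± 0.11 SE, adjusted p = 5.6e-11). Tet3 was also higher, at means of 8.83 and 1.07 CPM in double-KO and Kmt2c-KO cells (2.32). The maintenance gene Dnmt1 was lower by a smaller margin (-0.44), and Uhrf1 did not pass (-0.22).

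Lefty1 and Lefty2, antagonists of Nodal, were lower in double-KO cells, and Id1 and Id3, known targets of BMP, were higher. Lefty1 (chromosome 1, 180935022 to 180938400), a feedback antagonist of Nodal, had 6.06, 4.95 and 3.56 CPM in double-KO libraries, against 116, 108 and 129.6 CPM in Kmt2c-KO libraries (log2 fold change -4.36 ± 0.16 SE, adjusted p = 3.1e-19). Its neighbour Lefty2 had 26.7, 34.7 and 34.4 CPM in double-KO libraries, against 216, 227 and 176 CPM in Kmt2c-KO libraries (log2 fold change -2.66 ± 0.11 SE, adjusted p = 8.1e-18). Nodal itself averaged 61.2 ± 1.44 CPM in double-KO and 63.7 ± 0.706 CPM in Kmt2c-KO cells and did not pass (-0.057). The receptor gene Acvr2b (-1.36) and the coreceptor gene Tdgf1 (-0.50) were lower. On the BMP side Id1, an inhibitor of differentiation, had 191, 174 and 129 CPM in double-KO libraries, against 18.8, 18.8 and 18.2 CPM in Kmt2c-KO libraries (log2 fold change 3.06 ± 0.23 SE, adjusted p = 3.4e-11). Id3 had 200.0, 178 and 94.2 CPM in double-KO libraries, against 6.07, 23.2 and 11.6 CPM in Kmt2c-KO libraries (3.55). For both genes the double-KO library of replicate 3 was the lowest of its group and still above every Kmt2c-KO library. The ligand gene Bmp4 (2.04) and the decoy receptor gene Bambi (1.65) were higher, whereas Id2 did not pass, so that 2 of the 4 Id genes, a list made after their values were seen, were higher (Id2 0.031). The 23 tested Nodal, TGF-beta and BMP genes held 9 higher and 6 lower, with a median of 0.069. With Rn45s as a covariate 6 were higher and 7 lower, with a median of 0.10.

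Epithelial genes associated with GRHL2 were lower on balance, and more mesenchymal genes were called higher than lower. Of 39 measured epithelial genes 35 were tested, 17 called lower and 5 higher, with a median of -0.55. Wfdc2, an epithelial protease inhibitor gene, had 14.03, 17.5 and 21.01 CPM in double-KO libraries, against 211, 171 and 201 CPM in Kmt2c-KO libraries (log2 fold change -3.41 ± 0.19 SE, adjusted p = 1.3e-14). E-cadherin (Cdh1) had 80.5, 79.0 and 96.1 CPM in double-KO libraries, against 255, 266 and 225 CPM in Kmt2c-KO libraries (log2 fold change -1.54 ± 0.12 SE, adjusted p = 3.2e-11). Epcam, an adhesion gene, had 16.3, 15.1 and 15.0 CPM in double-KO libraries, against 46.7, 56.3 and 46.6 CPM in Kmt2c-KO libraries (log2 fold change -1.62 ± 0.14 SE, adjusted p = 9.5e-11). The splicing regulator gene Esrp1 (-2.29), the polarity gene Crb3 (-2.26) and Cldn4 (-0.96) were lower, and Grhl3 (1.44), Krt19 (1.45) and Perp (2.27) were higher. Grhl2 tags were lower in the same libraries, and their part in these values was not tested. Kmt2c-KO cells without GRHL2-ERT at 8 h, given tamoxifen and with 2.75 CPM of Grhl2, averaged 156 CPM of Wfdc2, 196 CPM of Cdh1 and 47.3 CPM of Epcam, all above the double-KO libraries. Of 19 measured mesenchymal genes 17 were tested, 11 higher and 3 lower, with a median of 1.12. This median leaned on genes at low levels: with a filter of 5 scaled CPM it was 0.58, with 7 higher and 3 lower of 11. Summed over the 19 measured genes, the list was lower in double-KO libraries (637, 656 and 654 CPM) than in Kmt2c-KO libraries (962, 900 and 867 CPM). Vimentin (Vim) averaged 109 ± 21.7 CPM in double-KO and 49.0 ± 7.197 CPM in Kmt2c-KO cells (1.12). The transcription factor genes Snai1 (1.43), Snai2 (1.89), Twist1 (1.342), Zeb1 (0.58) and Zeb2 (1.35) were each higher, and Tgfb2 had 25.6, 24.6 and 20.5 CPM in double-KO libraries, against 6.45, 4.34 and 6.88 CPM in Kmt2c-KO libraries (log2 fold change 1.85 ± 0.21 SE, adjusted p = 3.6e-08). Fibronectin (Fn1) ran the other way (-0.88), as did Sparc (-1.36).

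Genes of the basement membrane and of the contractile machinery held some of the larger gains. Of 22 collagen and basement membrane genes 9 were higher and 4 lower, with a median of 0.25. With Rn45s as a covariate 6 were higher and 6 lower, with the median again 0.25. The summed list was lower in double-KO libraries (1065, 1003 and 961 CPM) than in Kmt2c-KO libraries (1283, 1326 and 1211 CPM). Col4a1 (chromosome 8, 11198423 to 11312826), a chain of type IV collagen, had 78.1, 68.4 and 62.9 CPM in double-KO libraries, against 6.83, 6.51 and 12.02 CPM in Kmt2c-KO libraries (log2 fold change 2.95 ± 0.21 SE, adjusted p = 1.9e-12). Its neighbour and partner chain Col4a2 had 38.6, 37.9 and 38.02 CPM in double-KO libraries, against 7.84, 5.89 and 5.31 CPM in Kmt2c-KO libraries (log2 fold change 2.43 ± 0.20 SE, adjusted p = 6.6e-11). Agrin (Agrn) was lower, at 16.7, 17.1 and 18.6 CPM in double-KO libraries, against 80.0, 91.8 and 65.3 CPM in Kmt2c-KO libraries (log2 fold change -2.10 ± 0.15 SE, adjusted p = 1.9e-12). Of 24 actin and contractile genes 10 were higher and 6 lower, with a median of 0.35. Smooth muscle actin (Acta2) had 151, 149.6 and 166 CPM in double-KO libraries, against 19.7, 15.7 and 10.1 CPM in Kmt2c-KO libraries (log2 fold change 3.32 ± 0.24 SE, adjusted p = 5.8e-12). Caldesmon (Cald1) had 285, 351 and 367 CPM in double-KO libraries, against 127, 114 and 131 CPM in Kmt2c-KO libraries (log2 fold change 1.42 ± 0.14 SE, adjusted p = 3.1e-09), and the YAP target Ctgf averaged 16.3 and 2.00 CPM in double-KO and Kmt2c-KO cells (2.39). Beta-actin (Actb) did not pass (-0.24).

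Some genes of other lineages were higher in double-KO cells, most of them at low levels. Of 16 primitive endoderm genes 8 were higher and 4 lower, with a median of 0.84. Dab2, an endocytic adaptor, had 15.9, 15.5 and 15.5 CPM in double-KO libraries, against 2.53, 1.98 and 0.958 CPM in Kmt2c-KO libraries (log2 fold change 2.60 ± 0.24 SE, adjusted p = 5.6e-10). The regulators Gata6 (1.92 and 0.182 CPM in double-KO and Kmt2c-KO cells) and Foxa2 (3.59 and 0.439 CPM) were called higher at low levels, and Gata4 did not pass (-0.073). Apoe, listed as an endoderm gene and a lipid carrier, fell to 42.1, 37.1 and 54.0 CPM in double-KO libraries, against 439.8, 415 and 379.7 CPM in Kmt2c-KO libraries (log2 fold change -3.20 ± 0.13 SE, adjusted p = 8.1e-18). Among 17 tested trophoblast genes 7 were higher and 5 lower. Gata3, a trophoblast regulator, had 32.9, 34.6 and 40.7 CPM in double-KO libraries, against 12.1, 7.07 and 7.67 CPM in Kmt2c-KO libraries (log2 fold change 1.93 ± 0.22 SE, adjusted p = 2.4e-08), and Tfap2c was lower, at 12.4, 15.6 and 21.1 CPM in double-KO libraries, against 83.4, 101 and 69.6 CPM in Kmt2c-KO libraries (log2 fold change -2.32 ± 0.19 SE, adjusted p = 3.4e-11). Cdx2, Elf5 and Hand1 were not analysed here. Of 12 neuroectoderm genes 4 were higher (Sox1, Zic1, Nnat and Pax3) and 1, Crabp2, lower. Of 6 tested primitive streak and mesoderm genes 4 were higher and 1 lower, and of 5 tested genes of the two-cell-like state 3 were higher and 1 lower. The two-cell-like marker Zscan4c averaged 11.2 ± 2.02 CPM in double-KO and 0.678 ± 0.755 CPM in Kmt2c-KO cells (log2 fold change 2.94 ± 0.23 SE, adjusted p = 9.5e-12), with close copies that may share reads. Of 21 tested Hox cluster genes, a list made after their values were seen, 20 were called higher. They came from all 4 clusters, as Hoxa9 (23.2, 23.3 and 22.6 CPM in double-KO libraries, against 0.126, 0.434 and 0.0871 CPM in Kmt2c-KO libraries), Hoxc9 (3.91), Hoxb13 (1.47) and Hoxd13 (2.21) show. The cofactor genes Meis1 (1.45) and Meis2 (1.51) and the caudal gene Cdx1 (2.01) were higher as well.

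Imprinted genes were more often higher than lower. Of 29 measured genes 14 were higher and 5 lower, with a median of 0.32. Peg10, a retrotransposon-derived gene needed in placenta, had 683, 565 and 600.3 CPM in double-KO libraries, against 47.9, 46.2 and 57.8 CPM in Kmt2c-KO libraries (log2 fold change 3.58 ± 0.15 SE, adjusted p = 8.1e-18). Sgce shares its start region with Peg10 and had 45.3, 38.2 and 12.7 CPM in double-KO libraries, against 0.253, 1.86 and 0.261 CPM in Kmt2c-KO libraries, with 1 double-KO library well below the other 2 (log2 fold change 4.14 ± 0.51 SE, adjusted p = 6.1e-07). Mest had 139, 118 and 57.8 CPM in double-KO libraries, against 10.4, 12.3 and 11.2 CPM in Kmt2c-KO libraries (log2 fold change 3.01 ± 0.30 SE, adjusted p = 2.0e-08). Dlk1, a Notch-like ligand, had 46.3, 40.1 and 43.2 CPM in double-KO libraries, against 1.77, 2.79 and 6.27 CPM in Kmt2c-KO libraries (log2 fold change 3.38 ± 0.29 SE, adjusted p = 7.4e-11), while Meg3 from the same cluster was lower (-1.11). Igf2 was higher (1.59) and H19 was too (0.76). Of 23 germline genes 6 were higher and 8 lower, with a median of 0.0036. Sohlh2, a germ cell transcription factor, had 50.9, 54.1 and 30.8 CPM in double-KO libraries, against 2.40, 4.40 and 2.88 CPM in Kmt2c-KO libraries (log2 fold change 3.44 ± 0.28 SE, adjusted p = 8.8e-11), and the meiotic genes Sycp3 (-1.95) and Stra8 (-2.01) were lower. Tdrd12 had 6.21, 4.64 and 5.96 CPM in double-KO libraries, against 120.5, 102 and 99.9 CPM in Kmt2c-KO libraries (log2 fold change -4.04 ± 0.18 SE, adjusted p = 1.6e-17).

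Other subunits of the H3K4 methyltransferase complexes were called in both directions, with a balance that depends on the centring. Of 21 genes 5 were higher and 7 lower, with a median of -0.0032, but without centring 9 were higher and 2 lower, with a median of 0.31. Ncoa6, a subunit of the KMT2C and KMT2D complexes, had 39.5, 47.3 and 42.0 CPM in double-KO libraries, against 17.2, 21.7 and 17.9 CPM in Kmt2c-KO libraries (log2 fold change 1.14 ± 0.13 SE, adjusted p = 5.5e-08). Ash2l, a core subunit of all these complexes, had 439, 459.6 and 445 CPM in double-KO libraries, against 223, 258 and 250.1 CPM in Kmt2c-KO libraries (log2 fold change 0.88 ± 0.13 SE, adjusted p = 1.7e-06). Kdm6a, the demethylase subunit, was lower by a small margin (-0.42), and Paxip1 (0.28), Rbbp5 (0.038) and Wdr5 (-0.0032) did not pass. Of 18 demethylases, acetyltransferases and related factors 2 were higher (11.1%) and 6 lower (33.3%), but 5 higher and 2 lower without centring. Kdm5b was at -0.86, and Ep300 (p300) did not pass (-0.11). Of 32 Polycomb genes 8 were higher (25%, against 21.5% of all tested genes) and 5 lower (15.6%, against 22.1%), with a median of 0.21. Yaf2, an accessory subunit of Polycomb complex 1, had 26.8, 26.3 and 23.4 CPM in double-KO libraries, against 6.57, 8.74 and 6.36 CPM in Kmt2c-KO libraries (log2 fold change 1.70 ± 0.16 SE, adjusted p = 1.4e-09), and Phc2 (1.59), Cbx8 (1.23) and Bmi1 (1.15) were higher. Mtf2, which recruits Polycomb complex 2 to CpG islands, was lower (-0.90), while the catalytic subunit Ezh2 did not pass (0.069).

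More p53 targets were higher than lower in double-KO cells. Of 26 p53 targets 14 were higher and 2 lower, with a median of 0.44, and Trp53 did not pass (-0.32). Cdkn1a (p21), a cell cycle inhibitor, had 467, 363 and 440.3 CPM in double-KO libraries, against 207, 203 and 203 CPM in Kmt2c-KO libraries (log2 fold change 1.04 ± 0.11 SE, adjusted p = 7.8e-09). Eda2r, an X-linked death receptor gene, had 39.1, 40.7 and 32.1 CPM in double-KO libraries, against 2.15, 2.42 and 2.35 CPM in Kmt2c-KO libraries (log2 fold change 3.53 ± 0.24 SE, adjusted p = 9.1e-13). Pmaip1 (NOXA) went the other way, at 0.821, 1.47 and 0.623 CPM in double-KO libraries, against 25.7, 21.1 and 24.3 CPM in Kmt2c-KO libraries (log2 fold change -3.67 ± 0.18 SE, adjusted p = 5.6e-16). Of 27 genes of the G1 phase 8 were higher and 4 lower, a share called close to the 43.6% of all genes, and their median of 0.39 was 0.015 with Rn45s as a covariate. Cyclins D1 and D2 were higher (Ccnd1 1.052, Ccnd2 1.78) and cyclin D3 lower (Ccnd3 -0.89). Of 17 tested FGF-MAPK feedback and early genes 10 were higher and 3 lower, with a median of 0.67, in lines that were both grown with a MEK inhibitor. With Rn45s as a covariate 5 were higher and 4 lower, and at 16 h 6 were higher and 5 lower, with a median of -0.24. Phlda1 had 17.5, 18.7 and 19.7 CPM in double-KO libraries, against 3.03, 3.41 and 3.48 CPM in Kmt2c-KO libraries (log2 fold change 2.19 ± 0.24 SE, adjusted p = 2.0e-08), and Jun (1.45), Dusp6 (1.49) and Etv4 (1.42) were higher, while Fgf4 (-1.09) and Etv5 (-1.052) were lower. Of 27 tested Wnt pathway genes 5 were higher and 5 lower. The antagonist gene Dkk1 had 17.1, 14.5 and 13.98 CPM in double-KO libraries, against 1.90, 1.43 and 3.75 CPM in Kmt2c-KO libraries (log2 fold change 2.33 ± 0.26 SE, adjusted p = 1.9e-08), Tcf7l1 was lower (-1.29), and the feedback gene Axin2 did not pass (-0.10).

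Genes of protein synthesis, amino acid supply and glycolysis were more often lower than higher. Of 86 cytosolic ribosomal protein genes 62 were lower and 1 higher, with a median of -0.58 (-0.26 without centring, 42 lower and 5 higher). Rpsa had 1422, 1679 and 1534 CPM in double-KO libraries, against 3252, 2911 and 3476 CPM in Kmt2c-KO libraries (log2 fold change -1.06 ± 0.10 SE, adjusted p = 4.1e-10). Close copies of ribosomal protein genes may share reads, and the groups of Rpl26 and Rps27 were too variable to be called. Of 24 tested ATF4 and serine synthesis genes 15 were lower and the other 9 were not called, with a median of -0.69. Without centring 11 were lower and 5 higher. The arginine transporter gene Slc7a3 had 5.12, 5.07 and 4.18 CPM in double-KO libraries, against 45.3, 72.5 and 54.8 CPM in Kmt2c-KO libraries (log2 fold change -3.32 ± 0.23 SE, adjusted p = 6.9e-12). Cth, of cysteine synthesis, had 6.25, 6.35 and 5.16 CPM in double-KO libraries, against 51.8, 71.7 and 72.4 CPM in Kmt2c-KO libraries (log2 fold change -3.25 ± 0.22 SE, adjusted p = 1.8e-12). Atf4 itself was lower (-0.93), and Phgdh, the first enzyme of serine synthesis, did not pass (0.071). Of 27 tested glycolysis and hypoxia genes 14 were lower and 5 higher, with a median of -0.51. Bnip3, a mitophagy receptor, had 10.0, 12.9 and 8.01 CPM in double-KO libraries, against 77.6, 77.3 and 81.7 CPM in Kmt2c-KO libraries (log2 fold change -2.84 ± 0.15 SE, adjusted p = 2.8e-15), and Pgk1 had 229, 213 and 259.5 CPM in double-KO libraries, against 614, 576 and 667 CPM in Kmt2c-KO libraries (log2 fold change -1.40 ± 0.09 SE, adjusted p = 5.4e-13). The glucose transporter genes Slc2a1 (0.76) and Slc2a3 (1.11) were higher. Of 75 tested nuclear subunits of oxidative phosphorylation 31 were lower and 2 higher. Their median of -0.24 turned to 0.067 without centring, where 11 were lower and 19 higher. Of 30 cholesterol and fatty acid genes 9 were higher and 9 lower, with Srebf1 higher (1.68) and Ebp lower (-1.36). Of 12 tested interferon and antigen presentation genes 4 were lower and 2 higher (4 lower and 5 higher of 13 without centring), with Ifitm3 at -1.59 and B2m at 1.11. Of 37 tested histone genes 8 were lower (21.6%, against 22.1% of all tested genes) and 1 higher, among copies that may share reads.

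**Figure D3:**
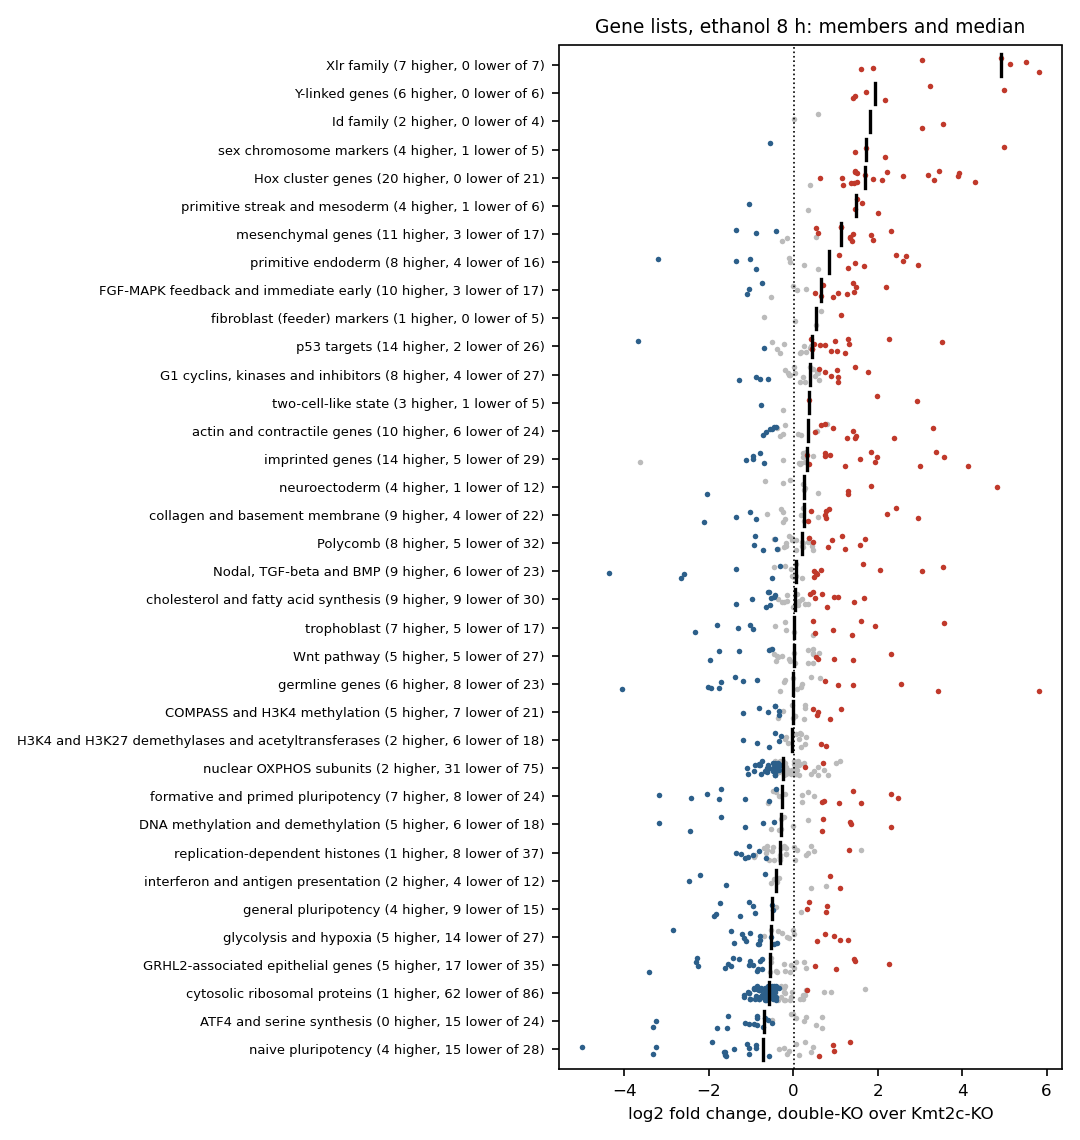
Log2 fold change of double-KO over Kmt2c-KO cells for the tested members of each gene list, 1 point a gene (red called higher, blue called lower, grey not called), with a black bar at the list's median and a dotted line at the median of all tested genes. The bars of the Xlr, Y-linked, sex chromosome, Hox, neuroectoderm and trophoblast lists include genes listed at 0 in every library of 1 line, whose fitted changes are no bound. Mesenchymal genes have a median of 1.12 (0.58 with a filter of 5 scaled CPM) and cytosolic ribosomal protein genes one of -0.58.

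The share of lower genes was larger at high levels. Among the highest 10% of genes by mean level of both lines, with a median of 255 CPM in Kmt2c-KO cells, 42.7% were lower and 11.4% higher in double-KO cells. Among the lowest 10%, with a median of 1.09 CPM, 17.9% were lower and 24.0% higher. The 20 most abundant genes took 13.2% to 15.5% of reads in double-KO libraries, against 17.5% to 20.5% in Kmt2c-KO libraries.

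The median change of the genes differed between chromosomes. On chromosome 17 the median log2 fold change was -0.38 over 581 tested genes, with 258 lower (44.4%) and 30 higher. Chromosomes 9 (-0.27), 14 (-0.27) and 12 (-0.21) were also low, and chromosomes 8 (0.34) and 2 (0.24) were high. In windows of 10 Mb with at least 10 tested genes, 0 of 13 medians on chromosome 9 and 0 of 12 on chromosome 12 lay above 0, and 18 of 18 did on chromosome 2. On chromosome 17 1 of 9 windows did, and on chromosome 8 10 of 13. Without centring chromosome 17 stood at -0.094, and chromosomes 9, 14 and 12 turned to 0.020, 0.028 and 0.074, against 0.32 over all genes. In the 16 h libraries the medians were -0.33 on chromosome 17, -0.26 on chromosome 9, -0.32 on chromosome 14, -0.21 on chromosome 12, 0.24 on chromosome 8 and 0.13 on chromosome 2. Copy number was not measured, and its part in the chromosome medians was not tested. Of 5 sex chromosome markers 4 were higher and 1 lower. All 6 measured Y-linked genes were called higher in double-KO cells, a list made after their values were seen. Ddx3y, an RNA helicase gene, had 88.7, 94.1 and 109.9 CPM in double-KO libraries, against 21.9, 18.5 and 22.04 CPM in Kmt2c-KO libraries (log2 fold change 2.17 ± 0.12 SE, adjusted p = 7.3e-15). Eif2s3y, a translation factor gene, had 39.9, 38.2 and 31.3 CPM in double-KO libraries, against 0.253, 0.310 and 0 CPM in Kmt2c-KO libraries (log2 fold change 4.98 ± 0.26 SE, adjusted p = 2.4e-15), and averaged 2.15 CPM in Kmt2c-KO cells without GRHL2-ERT, where Ddx3y averaged 49.0 CPM. Some of these genes have close X-linked copies that may share reads.

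**Figure D4:**
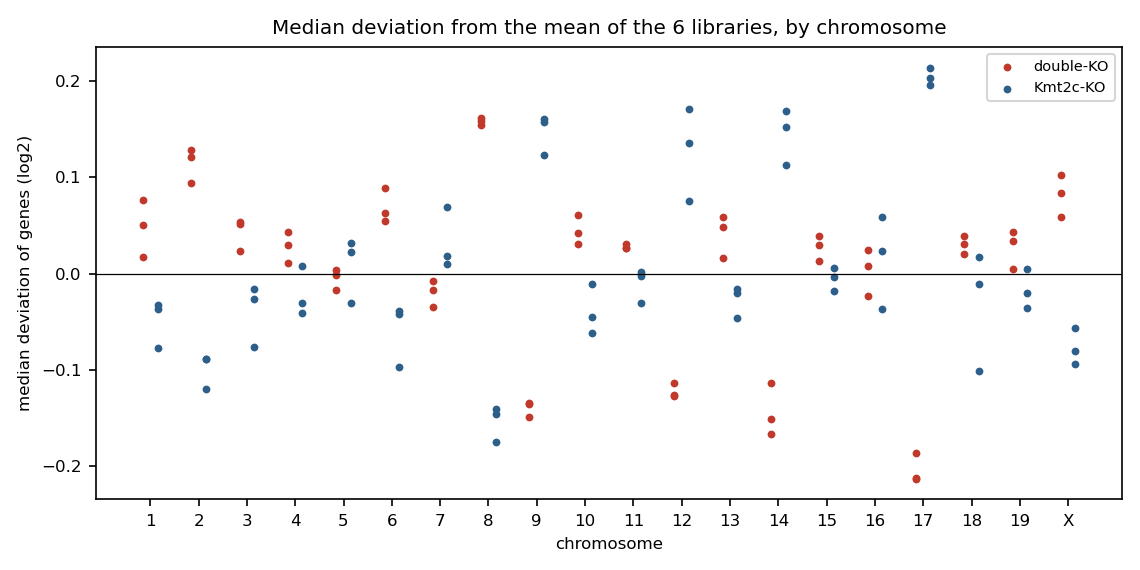
Median deviation of each chromosome's tested genes from the mean of the 6 libraries (vertical, log2 scale), 1 point a library, for the autosomes and the X chromosome, with double-KO left of Kmt2c-KO. On chromosomes 2, 6, 8, 9, 12, 14, 17 and X the 3 double-KO libraries lie apart from the 3 Kmt2c-KO libraries by more than their own spread.

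The same lines at 16 h in ethanol, measured in other libraries, gave 5130 called of 11918 genes (43%). Among 11624 genes tested at both times, 1563 were called higher at both, 62.0% of the 8 h and 63.1% of the 16 h increases. In the other direction 1745 were lower at both, 67.9% of the 8 h and 69.6% of the 16 h decreases. Across these genes the log2 fold changes of the 2 times had a Pearson r of 0.79, as a description over genes of the same clones. The line difference itself differed between the times for 587 of 12240 genes (4.8%), with 239 above 0 (1.95%) and 348 below 0 (2.84%). This count was 378 and 361 without the double-KO 16 h libraries of replicates 1 and 3, and 379 without the double-KO 8 h library of replicate 2. Lefty2 was -2.66 at 8 h and -0.085 at 16 h (8 h minus 16 h -2.57 ± 0.16 SE, adjusted p = 4.0e-12): double-KO cells averaged 142 CPM at 16 h, against 151 CPM in Kmt2c-KO cells. Dppa3 was -5.00 at 8 h and -2.49 at 16 h (-2.51 ± 0.30 SE, adjusted p = 3.5e-06), and Wfdc2 -3.41 and -1.23 (-2.18 ± 0.27 SE, adjusted p = 7.7e-06). In both, the Kmt2c-KO level was the lower at 16 h, at 19.3 CPM for Dppa3 and 95.1 CPM for Wfdc2. Acta2 was 3.32 at 8 h and 6.01 at 16 h (-2.69 ± 0.34 SE, adjusted p = 8.5e-06), where Kmt2c-KO cells averaged 1.08 CPM. Zscan4c was 2.94 at 8 h and 0.47 at 16 h (2.47 ± 0.32 SE, adjusted p = 8.3e-06). Of the 35 epithelial genes 11 differed between the times, and at 16 h 9 of 31 tested were higher and 7 lower, with a median of -0.015. Among the 86 ribosomal protein genes 3 differed between the times.

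**Figure D5:**
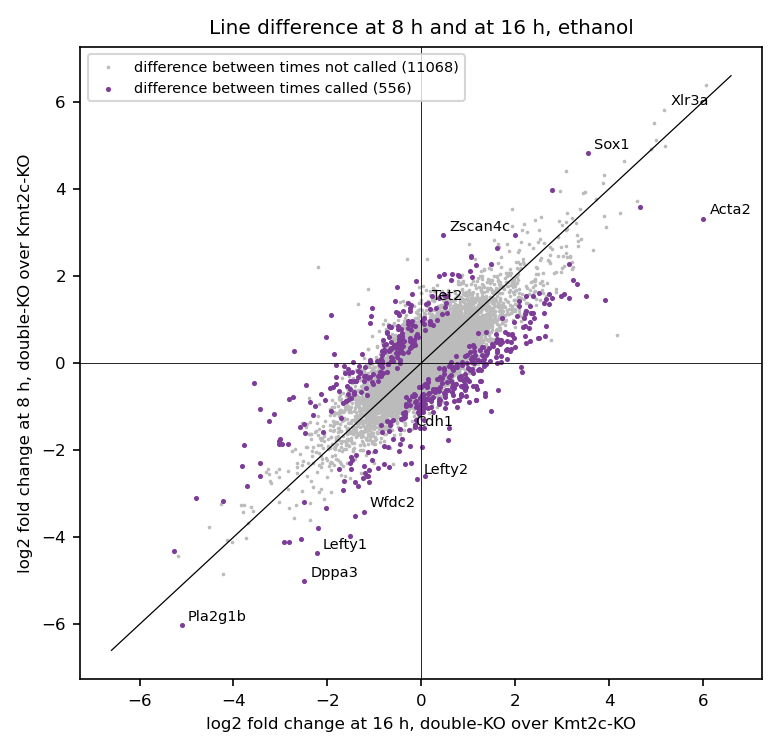
Log2 fold change of double-KO over Kmt2c-KO cells at 8 h (vertical) against 16 h (horizontal), 1 point a gene for the 11624 genes tested at both times, with purple marking genes whose difference between the times was called and a line of equality. Most genes lie near the line, while Lefty2, Dppa3, Wfdc2, Acta2 and Zscan4c lie off it.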

How the data were processed

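The authors' deposited table held log2 values of 12428 genes in 30 libraries. Per the submitters' processing notes, Salmon, DESeq2 1.34.0 and the mm10 build were used, with no role given for each. From the values, each was the log2 of CPM plus an offset of 0.124871, and CPM were restored from it. Per the labels' protocols, Trizol-extracted total RNA was made into libraries with a QuantSeq 3' FWD kit and read from a single end on a HiSeq 4000. The kit keeps strand, but whether counting used it is not stated in the labels.

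Each library's CPM were divided by a median-of-ratios factor over genes above 0 in all libraries, and log2(scaled CPM + 1) was fitted with limma 3.58.1 in R 4.3.3, with trend and robust moderation, a mean per group over all 30 libraries and 20 residual degrees of freedom. Genes with a mean of at least 1 scaled CPM in at least 1 group compared were tested. Errors are the SE of the fit or the SD over 3 libraries. The fit was tested on simulated data, but the recovery of CPM and the scaling, and so the centring, were not. Depth, from 8.86 to 22.03 M reads (median 16.2 M), was recovered from the spacing of low values, of which 94.8% to 97.7% were whole reads within 0.05. With no molecular identifiers named, it bounds counting error only.

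The comparison, the gene lists and the naming rule were chosen with earlier results of these data known. The rule took the 12 largest called increases and decreases with non-overlapping groups and at least 5 scaled CPM, without clone names, up to 4 called members of each list by adjusted p, and always Grhl2, Esr1, Kmt2c, Kmt2d, Rn45s, Pou5f1, Nanog and Sox2. Other named genes are list members, chosen after their values were seen. Some list members are not reported here. Lists were described without set tests. Genes were placed on mm10 with GENCODE M21 (11945 symbols, 96.1%), and 9458 (76.1%) matched a RefSeq promoter. The alternatives changed scaling, pseudocount, filter, weights, covariates and libraries.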

Additional observations from a re-analysis of the deposited data

Results flagged for a closer look

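The line difference, double-KO over Kmt2c-KO in ethanol, was not the same at 8 h and 16 h for 587 genes, by limma's test of the difference itself (8 h minus 16 h on the log2 scale, Benjamini-Hochberg adjusted p under 0.05). Both times share clones but no libraries. Of the genes named above, those with values below 0 were Acta2 (-2.69), Lefty2 (-2.57), Dppa3 (-2.51), Lrrc15 (-2.45), Wfdc2 (-2.18), Lefty1 (-2.13), Esrp1 (-2.08), Tfap2c (-1.52), Tdrd12 (-1.49), Grhl2 (-1.49), Zeb2 (-1.37), Gtsf1l (-1.30) and Fbxo15 (-1.30), then Cdh1 (-1.28), Srrm4os (-1.20), Meg3 (-1.16), Peg10 (-1.08), Tet1 (-0.93), Pla2g1b (-0.92), Perp (-0.88), Id2 (-0.85), Tcf7l1 (-0.85), Ccnd3 (-0.76), Apoe (-0.71), Agrn (-0.70), Ebp (-0.69), Cdkn1a (-0.69) and Cldn4 (-0.63). Those with values above 0 were Zscan4c (2.47), Etv4 (1.98), Sox1 (1.27), Tet2 (1.25), Gfra3 (1.19), Utf1 (1.09), Dnmt3l (1.04), Pla1a (0.95), Tbx3 (0.73), Klf2 (0.72), Ash2l (0.62), Dppa2 (0.49) and L1td1 (0.46). A value below 0 means that the difference at 8 h lay below that at 16 h, whichever line was higher.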

How the results depend on the processing

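The count of 5206 genes at 8 h and the 5130 at 16 h stayed within 1.5 times under every scaling, pseudocount, filter, weighting and covariate tried, apart from the size limit. With a change of at least 1 on the log2 scale 1772 genes were called at 8 h, 1814 at 16 h and 355 for the difference between times. Leaving out 1 library gave 4207 to 5092 genes at 8 h, 4372 to 4466 at 16 h and 361 to 651 for the difference. The 587 genes of that difference became 1080 in a fit to only the libraries contrasted, 1360 without the double-KO tamoxifen 8 h libraries and 2635 with array weights, and the cause was not tested. It was 378 and 361 without the double-KO 16 h libraries of replicates 1 and 3, and 379 without the double-KO 8 h library of replicate 2. With Rn45s as a covariate 4340 genes were called at 8 h, 3479 of them among the 5206. A fit to only the libraries contrasted called 4648 at 8 h, and one without the double-KO tamoxifen 8 h libraries called 6079. Upper-quartile scaling gave 2810 higher and 2411 lower at 8 h.

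Replicate numbers did not pair the libraries: deviations of same-numbered libraries of both lines correlated at -0.25, 0.20 and -0.046, and libraries did not all correlate best with their own number. A replicate block over all libraries gave 5101, 5037 and 513 genes for 8 h, 16 h and the difference. A block in the libraries of the contrast alone gave 4349, 7619 and 1117.

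Without centring the median moved to -0.094 on chromosome 17, 0.020 on 9, 0.028 on 14, 0.074 on 12, 0.64 on 8 and 0.53 on 2, by the construction of the scaling. Leaving out 1 library gave -0.40 to -0.38 on chromosome 17, -0.30 to -0.26 on 9, -0.28 to -0.26 on 14, -0.23 to -0.20 on 12, 0.30 to 0.35 on 8 and 0.20 to 0.26 on 2. Of 142 genes named by rule 139 were called, and none reversed under any of these alternatives. The outcome, called or not, stayed the same for 117 of the 142 under every alternative in which they were tested. Leaving out 1 library ended the call of 3: Esr1, Mbnl3 and Rn45s. Depth limits genes near 1 CPM, where 3 reads in 1 library stood for 0.136 to 0.339 CPM before scaling.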

Other observations

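Snrpn, an imprinted gene, had 9.75, 0 and 31.2 CPM in double-KO libraries, against 92.5, 95.2 and 70.0 CPM in Kmt2c-KO libraries, with no call (log2 fold change -3.62 ± 1.79 SE, adjusted p = 0.11). It was listed at 0 in 1 of these 6 libraries and in 3 of the other 24, and reached 114 CPM in a Kmt2c-KO library without GRHL2-ERT.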
